A study of Sorghum bicolor with 4 samples.

Results

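The 98 genes described here held a moderate transcript level in the stem of sweet sorghum at the milk stage and were close to or at 0 by physiological maturity. They were chosen by their values. A gene was taken where its locus in the deposited table carried exactly 1 sorghum gene identifier (of the form Sobic, chromosome number, G, running number), where the milk-stage value was at least 5 and under 100 FPKM, and where the maturity value was under 1 FPKM. FPKM is the number of sequenced fragments scaled to the length of the locus and to the mapped fragments of the library. The table held 34458 loci, of which 31423 carried 1 identifier, and 9779 of those lay at 5 to 100 FPKM at the milk stage.

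RNA was sequenced from the middle stem internode of the sweet sorghum line ICSA38, grown in an open field, with 2 libraries from the milk stage and 2 from physiological maturity, 4 in all. Both groups shared the line, the tissue and the field setting, and the labels give no treatment and no plant age in days. They number the libraries and do not say whether these came from separate plants. The table gives 1 value per locus and stage, so no standard deviation, test or p-value could be given, and a difference cannot be set against the spread between libraries.

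Sweet sorghum stores sucrose in the soft inner tissue of its stalk. At the milk stage the grain is filling with a milky fluid, and physiological maturity is the point at which the grain stops gaining dry weight. Internodes have stopped elongating well before this time, and the stem then loads sugar and lays down cell wall. The table pairs identifiers with no gene name or product, so no function is assigned to any gene below, and the internode could not be checked against marker genes of its cell types. In RNA from whole tissue, fewer cells of a type and less RNA per cell cannot be told apart.

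At the milk stage the members ranged from 5.02 to 92.2 FPKM, with a median of 8.24 FPKM and quartiles of 6.48 and 16.7 FPKM. At maturity they ranged from 0 to 0.977 FPKM, with a median of 0.457 FPKM and quartiles of 0.119 and 0.728 FPKM. Most were therefore low genes of the chosen range, and a few abundant ones made up much of the total. The 10 most abundant held 38.2% of the members' summed milk-stage FPKM, and all 98 together held 0.181% of the milk-stage sum of the table and 0.00632% of the maturity sum.

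**Figure D1:**
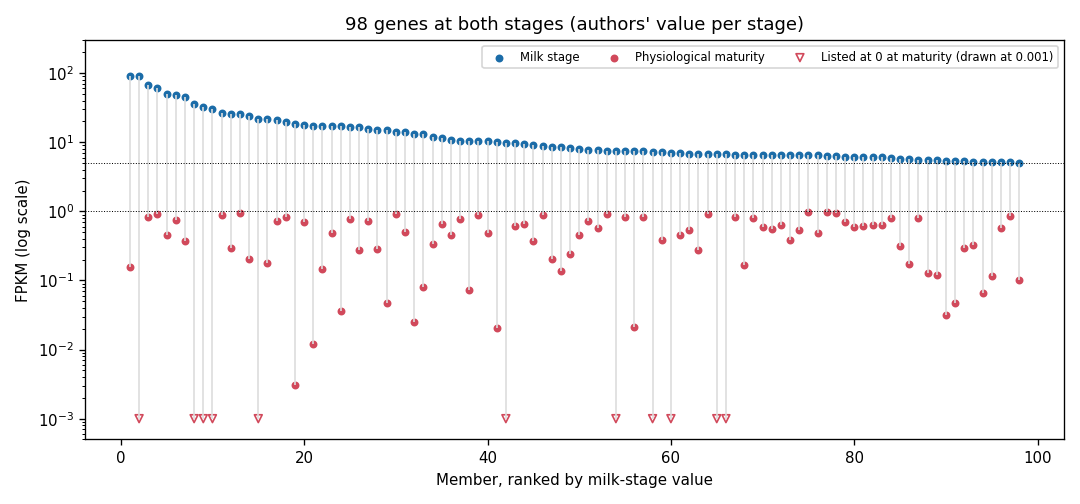
FPKM of each of the 98 members (log scale) at the milk stage (blue) and at physiological maturity (red), ranked by milk-stage value, with open triangles for values listed at 0. Dotted lines mark 5 and 1 FPKM; milk-stage values run from 92.2 down to 5.02 FPKM, and 11 members are listed at 0 at maturity.

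The word off describes only part of the set. At maturity 11 members were listed at 0, 12 lay above 0 and under 0.1 FPKM, 33 lay from 0.1 to under 0.5 FPKM, and the largest class, 42 members, lay from 0.5 to under 1 FPKM. Of all 9779 loci in the milk-stage range, 1% were members. The mirror rule, from under 1 FPKM to at least 5 and under 100 FPKM, was met by 103 of the 10339 loci in that maturity range (0.996%), a like number. The number of fragments behind a value is unknown, so a 0 is read only as listed at 0.

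The rule fixed the direction and much of the size of the stage difference, so the following values are a description and support nothing. After adding 1 FPKM to both values, the members' log2 differences of maturity over milk stage ran from -6.51 to -1.72, with a median of -2.90, against 0.04 for the 18749 loci compared, which were those reaching 1 FPKM in either stage. All 98 members were at least 2-fold lower at maturity, which the limits of the rule made certain, against 10.7% of all loci compared. An 8-fold lower value was found for 42 members, or 42.9%, against 0.672% of all loci. As plain ratios, the 87 members above 0 at maturity were between 5.95-fold and 6042-fold lower, with a median of 23.4-fold. A ratio to a value this close to 0 is poorly determined at unknown depth.

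**Figure D2:**
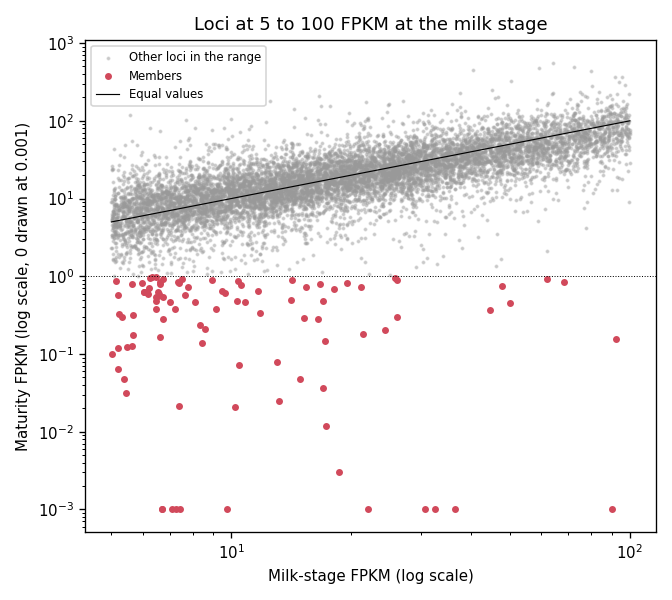
Maturity FPKM against milk-stage FPKM (both log scales, values of 0 drawn at 0.001) for the 9779 single-identifier loci at 5 to 100 FPKM at the milk stage. The 98 members (red) lie under the dotted line at 1 FPKM, and the solid line marks equal values.

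The share of loci that met the rule became smaller with abundance. Of 2426 loci at 5 to 10 FPKM at the milk stage, 57 were members (2.35%). The share was 0.853% of 2812 loci at 10 to 20 FPKM, 0.385% of 3120 loci at 20 to 50 FPKM and 0.352% of 1421 loci at 50 to 100 FPKM. A fixed limit of 1 FPKM asks for a larger ratio from a more abundant gene, and its part in this order was not tested. Members listed at 0 numbered 6 at 5 to 10 FPKM (0.247% of the loci there), 0 at 10 to 20 FPKM, 4 at 20 to 50 FPKM (0.128%) and 1 at 50 to 100 FPKM (0.0704%), counts too small to read an order from.

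The most abundant members differed in how much transcript was left at maturity. The genes named from here on were picked after their values were seen. Sobic.001G492000, the highest of the set, measured 92.2 FPKM in milk-stage stem and 0.158 FPKM at maturity. Sobic.008G135500 was at 90.0 FPKM and was listed at 0 at maturity, the largest log2 difference of the set at -6.51. The next most abundant members kept more of their transcript. Sobic.010G100600 was at 68.3 and 0.833 FPKM, and Sobic.009G168800 at 61.8 and 0.929 FPKM, both just under the maturity limit.

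Besides Sobic.008G135500, 10 members were listed at 0 at maturity. The abundant ones were Sobic.003G082500 at 36.3 FPKM at the milk stage, Sobic.004G087050 at 32.4 FPKM, Sobic.008G080400 at 30.6 FPKM and Sobic.006G110850 at 21.97 FPKM. The other 6 were at 6.70 to 9.74 FPKM, where few fragments may lie behind the milk-stage value as well. Sobic.004G335500, at 18.6 FPKM at the milk stage, had the lowest value above 0 at maturity, 0.0031 FPKM, and the largest plain ratio.

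Values lay close to the limits on both sides. Just inside the maturity limit were Sobic.005G185200 at 0.977 FPKM and Sobic.010G192500 at 0.973 FPKM, and just outside were Sobic.001G087500 at 1.005 FPKM and Sobic.004G333900 at 1.02 FPKM. There were 8 members from 0.9 to 1 FPKM and 7 loci of the milk-stage range from 1 to 1.1 FPKM. At the lower milk-stage limit, Sobic.007G027900 at 5.02 FPKM was just inside and Sobic.007G153600 at 4.87 FPKM just outside. Few loci lay beyond the upper limit, where 6 of the 1234 single-identifier loci from 100 FPKM upward in milk-stage stem were under 1 FPKM at maturity. The nearest was Sobic.006G093500 at 158 and 0.0123 FPKM. As a share this was not below the 5 of 1421 loci (0.352%) at 50 to 100 FPKM, and both rest on small counts.

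Loci outside the single-identifier set met the same limits to different extents. Of 351 loci without an identifier in the milk-stage range, 22 (6.27%) were under 1 FPKM at maturity. They were at 5.13 to 80.5 FPKM in milk-stage stem, with a median of 8.50 FPKM, and 5 of them were listed at 0 at maturity. Of 805 loci with several identifiers, 5 (0.621%) met the limits.

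The identifiers themselves, which the rule used only in their number per locus, differed in form between the members and the other loci of the range. Identifiers with K in place of a chromosome number were counted with those ending in 00, whatever their last digits. They numbered 9 in the milk-stage range and 100 over all single-identifier loci. Most sorghum identifiers end in 00. In 15 of the 98 members (15.3%) the last digits were others, against 459 of the 9779 loci in the same milk-stage range (4.69%). Over all 31423 single-identifier loci, expressed or not, the share was 14.9%, close to that of the members. Read the other way, 3.27% of the 459 loci with such an identifier were members, and 0.891% of the 9320 loci with an identifier ending in 00. The members that were listed at 0 carried such identifiers in 5 of 11 cases, against 10 of the 87 members above 0. Low abundance moved with the identifier form, since 6.03% of loci at 5 to 20 FPKM had it. Members at 5 to 20 FPKM had it in 13 of 81 cases (16.0%). The lengths and gene models of these loci were not analysed here, and their part in the low values was not tested.

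By the chromosome number in the identifier, members were found on each of the 10 chromosomes. Their share of the loci in the milk-stage range ran from 0.578% on chromosome 2 (7 members) to 1.48% on chromosome 8 (7 members). Chromosome 1 held the most, 17, which was 0.905% of its loci in the range. Each chromosome gave between 5 and 17 members, so these shares rest on small counts and no chromosome is set apart by them.

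**Figure D3:**
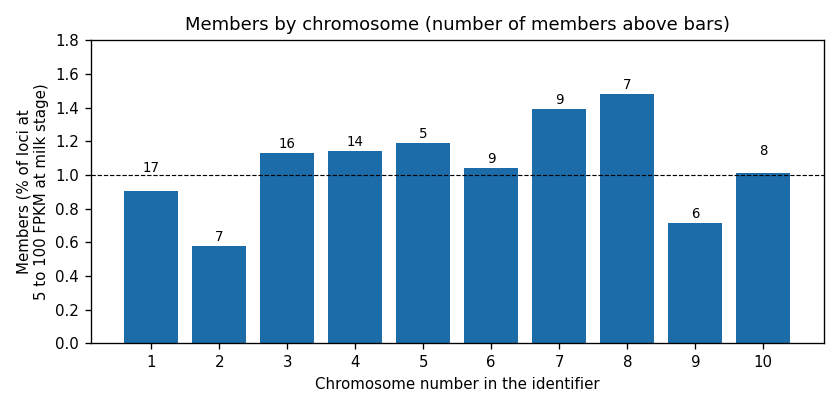
Members as a percentage of the single-identifier loci at 5 to 100 FPKM at the milk stage, for each chromosome number in the identifier, with the number of members above each bar. The dashed line marks 1%, the share over all chromosomes; bars run from 0.578% on chromosome 2 to 1.48% on chromosome 8.

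Within chromosome 4, members were concentrated in 1 stretch of identifiers, which was noticed in the data and carries no test. Between Sobic.004G139000 and Sobic.004G171350 lay 317 loci with 1 identifier, 100 of them in the milk-stage range, and 8 of these were members (8%). On the rest of the chromosome 6 of 1130 loci in the range were members (0.531%). Outside this stretch, the most members in any run of 317 loci in identifier order was 5, on chromosome 3. The ends of the stretch were set at members, which favours a high count. In fixed windows of 200 single-identifier loci, those covering the stretch held 3, 2 and 3 members, against a median of 0 over 153 windows. The highest count of any window was 4, on chromosome 1, from Sobic.001G105800 to Sobic.001G126200.

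The 8 members of the stretch were of middling abundance, and all but Sobic.004G139000 lay well below the maturity limit. Sobic.004G142500 measured 17.2 FPKM in milk-stage stem and 0.149 FPKM at maturity. Sobic.004G171300 was at 17.0 and 0.0366 FPKM, and Sobic.004G155400 at 15.3 and 0.289 FPKM. Sobic.004G167700 was at 14.9 and 0.0478 FPKM. The smallest plain ratio among these 4 was 52.7-fold, for Sobic.004G155400, above the median of the set. Sobic.004G139100 was at 13.0 and 0.0795 FPKM, Sobic.004G157100 at 10.4 and 0.0718 FPKM, Sobic.004G139000 at 10.4 and 0.879 FPKM, and Sobic.004G171350 at 6.70 FPKM and listed at 0. The rule chose these values, and the stretch was found from the members, so they describe the 8 genes and do not set them apart from the other members.

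Few other loci of the stretch were lower. Of its 174 compared loci that were not members, 11 were at least 2-fold lower at maturity (6.32%) and 16 at least 2-fold higher, with a median log2 difference of -0.05. The largest decrease among the 11 by log2 difference, -3.33, lay within the members' range. It was that of Sobic.004G147800, at 411 and 40.0 FPKM, outside both limits of the rule. On the rest of chromosome 4, 11.4% of compared loci that were not members were at least 2-fold lower. Most of the loci between the members thus differed by less than 2-fold.

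**Figure D4:**
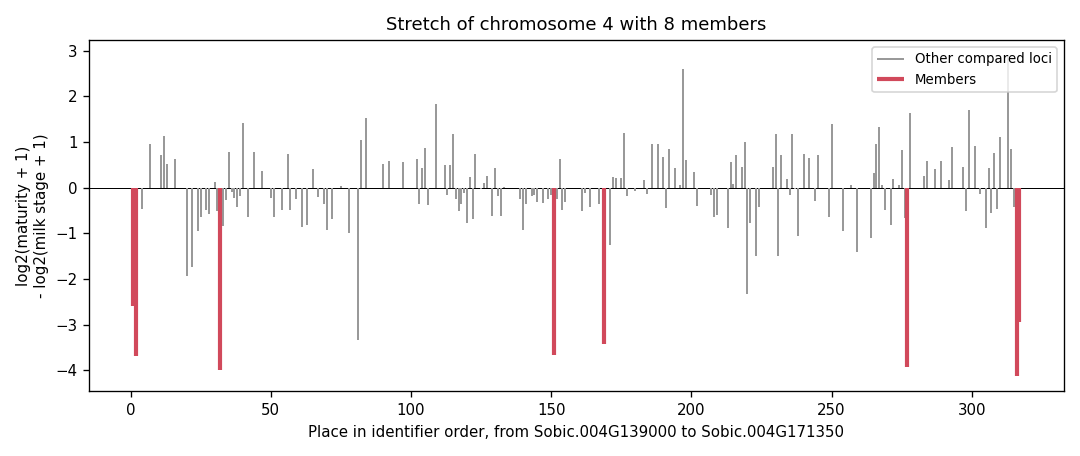
Log2 difference of maturity over milk stage (1 FPKM added to each) for the compared loci from Sobic.004G139000 to Sobic.004G171350, in identifier order along the x axis; loci under 1 FPKM at both stages are left blank. The 8 members (red) reach from -4.11 to -2.60. The other loci (grey) run from -3.33 to 2.88, with a median of -0.05.

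Across the whole set, loci numbered directly beside a member were more often lower at maturity than loci beside other genes of the same milk-stage range. Of 130 compared neighbours, 31 were at least 2-fold lower (23.8%) and 5 at least 2-fold higher (3.85%). Around all loci at 5 to 100 FPKM, these shares were 11.4% and 9.88% of 11626 compared neighbours. Beyond the adjoining places, counted over both sides, the share was near that background. It was 11% at 2 places from a member, 12.5% at 3 places and 10.1% at 4 to 10 places. The sides differed, with 15.4% lower at the place before a member and 32.3% at the place after, and with 3.45% and 19.6% at the next ones out. Of the 10 lower loci at the place before, 4 were members, which the rule made lower, and so were 4 of the 21 after. Without them, the share before was not above the 11.5% found at that place around all loci in the range. The share after still exceeded the 11.2% there. Leaving out neighbours that were members themselves, 23 of 122 over both sides were at least 2-fold lower (18.9%). Neighbours of 1 table share the same libraries and are not replicates, so these shares are a description with no test. Reads or transcript models that run across adjoining loci were not analysed here, and their part was not tested.

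**Figure D5:**
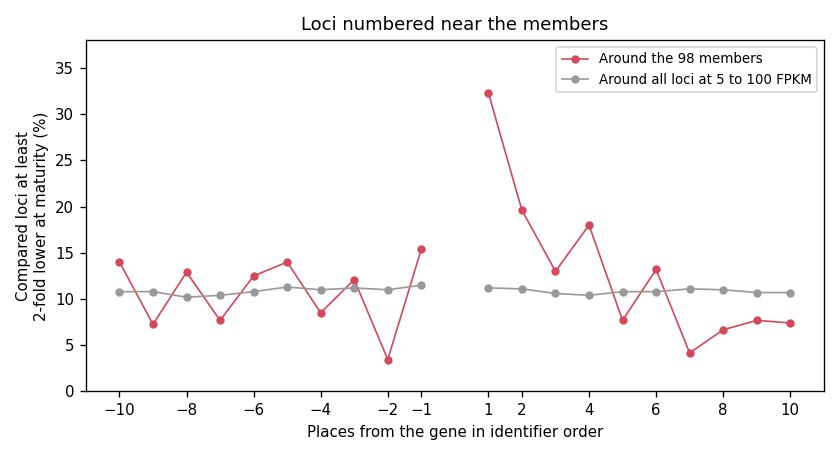
Percentage of compared loci at least 2-fold lower at maturity, by the number of places from the gene in identifier order, before (negative) and after (positive). Around the members (red) it was 15.4% at the place before and 32.3% at the place after; around all loci at 5 to 100 FPKM (grey) it stayed between 10.2% and 11.5%. At each of these 2 places, 4 of the lower loci are members themselves, which the rule made lower.

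A lower neighbour was found for 28 of the 86 members with at least 1 compared neighbour, and for 3 of them on both sides. These were 32.6% and 3.49% of the 86. The 28 include the 8 members that adjoin another member, a neighbour that the rule made at least 2-fold lower. Among the 3, Sobic.004G171350 had the member Sobic.004G171300 before it. Both shares are therefore in part fixed by the rule. Among the 8088 loci of the milk-stage range with a compared neighbour, the same shares were 15.6% and 0.754%, given here as a description with no test. Among neighbours that were not members, the largest decrease by log2 difference was beside Sobic.007G217200, itself at 21.4 and 0.180 FPKM. Its neighbour Sobic.007G217300 measured 113 FPKM in milk-stage stem and 7.93 FPKM at maturity. Sobic.001G491900, beside the most abundant member, was at 49.6 and 13.0 FPKM. Sobic.003G082600, beside a member listed at 0, was at 29.3 and 5.43 FPKM. In each of these pairs the neighbour kept several FPKM at maturity while the member was under 0.2 FPKM. Some less abundant lower neighbours fell under 1 FPKM themselves. Examples were Sobic.010G211200 at 2.53 and 0.299 FPKM and Sobic.005G053001 at 2.41 and 0.111 FPKM. Among the members with both neighbours lower, Sobic.010G087500 was at 16.5 and 0.279 FPKM. The loci on its sides were at 14.1 and 6.16 FPKM, and at 26.7 and 9.25 FPKM.

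There were 4 pairs of members with adjoining places in identifier order, 8 genes or 8.16% of the set, whereas 0.869% of the loci in the milk-stage range were next to a member. Both pairs on chromosome 4 lay in the stretch described above. Of the others, Sobic.008G135500 (90.0 FPKM and listed at 0) preceded Sobic.008G135600 (6.63 and 0.166 FPKM). Sobic.003G307100 (26.1 and 0.898 FPKM) preceded Sobic.003G307200 (6.75 and 0.543 FPKM). In both of these pairs the first gene was several times as abundant as the second at the milk stage.

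Abundant genes were about as common beside the members as beside other loci of the range. A neighbour at 100 FPKM or above in milk-stage stem was found for 10 of the 98 members (10.2%) and for 9.24% of all 9779 loci in the range. Of those 10 abundant neighbours, 2 were at least 2-fold lower at maturity, against 26% of the 930 abundant neighbours around all loci in the range. The 2 were Sobic.007G217300, described above, and Sobic.003G278500, at 470 and 171 FPKM beside Sobic.003G278400 at 7.03 and 0.461 FPKM. The most abundant of the others was Sobic.010G101200, at 2578 and 1656 FPKM beside Sobic.010G101300 at 24.3 and 0.203 FPKM.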

How the data were processed

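Libraries were prepared from Trizol-extracted total RNA with a stranded kit, per the labels' protocols. The submitters' processing notes list Cuffdiff, HISAT2 2.0.5, Bowtie2 2.2.9 and cutadapt 1.8.1 without their roles. Genome build, strand setting and library scaling were not given in the sources used here. Gene by gene, the authors computed and deposited FPKM values in 2 columns, 1 per stage, whose headings lack a replicate number and were read as a combined value of each stage. The planned limma test therefore could not be run, and depth is unknown.

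Log2 differences were computed after adding 1 FPKM, over loci at 1 FPKM or more at either stage. Neighbours were the next single-identifier loci in identifier order on a chromosome. Of the identifiers, 0 matched the reference gene table, so the planned gene groups, cell type markers and promoter motifs could not be formed, and sequences are not shown. The planned rule for named genes allowed 2 unnamed identifiers; the others were named after their values were seen. The members and comparisons were chosen with earlier results of these data known. Calculations were tested on simulated data. The software was matplotlib 3.10.9, scipy 1.17.1, pandas 2.3.3 and numpy 2.4.6 under Python 3.11.15.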

Additional observations from a re-analysis of the deposited data

How the results depend on the processing

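The count of 98 members moved with the limits, to 56 at a maturity limit of 0.5 FPKM, 203 at 2 FPKM and 41 with a milk-stage minimum of 10 FPKM. It was 84 with equal sums, 105 with quantile normalization, 100 with median-of-ratios scaling and 125 with any number of identifiers. All 84 under equal sums were members, and the 105 and 100 held all 98. The members' median log2 difference of -2.90 was -4.55 with a pseudocount of 0.1, and also -4.55 as a plain ratio of the members above 0. An 8-fold limit left 42.9% of members called in place of 100%. The 23.8% of neighbours at least 2-fold lower was 19.1% with equal sums, against 7.96% around all loci in the range, and 22% without the chromosome 4 stretch; at 2 and 3 places it was 11% and 12.5%. Without that stretch, 4 members adjoined another, in place of 8. Equal sums moved the median of all loci by 0.24. The share of members with identifiers not ending in 00 was 16% at 5 to 20 FPKM, against 15.3%. Within 5 places, 12 members were near another, a planned setting, with no share over all loci of the range given beside it. The 8-fold limit, the plain ratio, the identifier form at 5 to 20 FPKM, the settings of the share of lower neighbours and those without the stretch were added with the data in view. No paired analysis was possible because each stage has a single column, which also means that no library could be left out. The promoter alternative was not run. Unknown depth limits the reading of each maturity value here.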

Other observations

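The 103 single-identifier loci of the mirror rule (under 1 FPKM in milk-stage stem, 5 to under 100 FPKM at maturity) reached at most 52.6 FPKM at maturity, against 92.2 FPKM at the milk stage for the 98 members, and 5 were listed at 0 at the milk stage, against 11 members listed at 0 at maturity. Identifiers not ending in 00 made up 9.71% of them, against 4.60% of the loci in their maturity range. Of 114 compared loci directly beside them, 24 had a maturity value at least 2-fold higher (21.1%) and 11 one at least 2-fold lower (9.65%). Around all loci of their maturity range, these shares were 10.5% and 10.7% of 12251 compared neighbours. The share of higher loci was thus above its background, while that of lower loci was near it. Of the 24 higher loci, 2 met the mirror rule themselves, which made them higher. By side, 15.8% were higher at the place before and 26.3% at the place after. Around all loci of that range these were 10.4% and 10.5%. At 2 and 3 places, the share of higher loci was 15.2% and 19.5%, against 10.9% and 10.6% around all loci of that range. At 3 places, 2 of the 24 higher loci again met the mirror rule themselves. Only 2 of the 103 had adjoining places in identifier order, against 8 of the 98. For the 103, no share over all loci of their range is given beside that count. These values were not tested against each other.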
